A study of Homo sapiens with 8 samples.

Results

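The effect of venetoclax alone was measured by RNA sequencing in KG1a, a human leukemia line of myeloid origin that carries the stem and progenitor marker CD34. The 2 libraries of cells kept for 48 h with 1 µM venetoclax were compared with the 2 libraries of cells given the DMSO vehicle, 4 of the 8 libraries of the study. The other 4 libraries came from cells given 5 µM TAK-981, which blocks attachment of the small modifier SUMO to proteins, either alone (2 libraries) or together with 1 µM venetoclax (2 libraries). They enter as a second measurement of the venetoclax difference and in the test of whether both venetoclax effects differ. They also enter an alternative fit over all 8 libraries and the scaling of the levels given below. All cells were grown in the same serum-containing medium. Whether replicate libraries stem from separate cultures is not stated, so p-values measure a spread between libraries that may be technical only. For the genes the results turn on both venetoclax libraries are given singly, because they differed from each other more than the replicates of any other group.

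Venetoclax binds the groove of BCL2 that normally holds the BH3 segment of pro-apoptotic proteins, and so frees those proteins to open the mitochondrial outer membrane through BAX and BAK1. Cells that rely on MCL1 or BCL2L1 in place of BCL2 are known to tolerate the drug. Glycolysis genes, on which several results below turn, are textbook targets of the hypoxia-inducible factor HIF1, which binds the core sequence ACGTG and is kept low by prolyl hydroxylases when oxygen is plentiful. Genes of ribosome assembly are textbook targets of MYC, which binds the E-box CACGTG.

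Total counts were 22777546 and 23819348 in the vehicle libraries and 14667378 and 26304900 in venetoclax replicates 1 and 2, so replicate 1 was the shallower of the treated pair. Levels are given as counts scaled to library size (CPM), or the same per kilobase (RPKM) where genes are set against each other. Among genes of at least 5 CPM in a group, the median absolute log2 difference between replicates was 0.0969 for vehicle, 0.0883 for TAK-981, 0.102 for both drugs and 0.259 for venetoclax. More than 2-fold differences between the venetoclax libraries were found in 245 of 9640 genes, against 8 of 9801 in the vehicle pair. CD34 stood at 982 and 952 CPM with vehicle and at 1519 and 1196 CPM with venetoclax. SPN and PTPRC, further surface proteins of blood cells, were at 759 and 699 against 778 and 722 CPM and at 830 and 808 against 742 and 542 CPM. Of the 18 markers on the immature list, IL3RA was at 0 in all 4 libraries and CD33 was too low to be tested. CD33 was at 0.434 and 0.384 CPM with vehicle and at 0.381 and 0.312 CPM with venetoclax. The 15 tested immature markers had a median log2 fold change of -0.16 (0.0091 with the GC correction described below), with 8 of 15 below 0. Without overlap of the groups 5 lay lower and 1 higher, against 28.4% and 30.5% of all tested genes. Of 15 markers of mature myeloid cells, MPO, ELANE, PRTN3, S100A8, FCGR1A and CEBPE were at 0 in all 4 libraries, and the summed level of the 15 was 5.55 to 5.90 CPM with vehicle and 3.0 to 3.43 CPM with venetoclax. By edgeR 0 members of the 8 marker lists passed the test, and 2 of the 4 tested mature myeloid and 3 of the 15 tested immature markers had an unadjusted p under 0.05, against 25.6% of all tested genes. In bulk RNA, fewer cells of a type and less RNA per cell cannot be told apart.

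In cells given venetoclax 10 of 24 glycolysis genes, 7 of 24 other hypoxia-inducible genes and 3 of 20 NF-kB genes fell. Rises were called in 7 of 44 ribosome assembly genes, in 4 of 25 chaperone genes of the cytosol, in 4 of 25 of the endoplasmic reticulum and in 4 of 31 proteasome subunits, the last in 0 when either vehicle library was left out. Of 12293 genes tested with edgeR's quasi-likelihood test on the 4 libraries, 200 passed at an adjusted p under 0.05 (1.63%), 63 higher (0.512%) and 137 lower (1.11%). A change of more than 2-fold was seen in 34 of the rises and 101 of the falls. The smallest called change was 0.73 on the log2 scale, and all called genes had an adjusted p between 0.0359 and 0.0498, close under the threshold. A further 2953 genes had an unadjusted p under 0.05 without passing. A fit over all 8 libraries, in which the closer replicates of the other groups lower the shared spread, called 2676 of 12843 genes (20.8%), the 200 included. The groups did not overlap in 58.9% of tested genes, 30.5% higher and 28.4% lower with venetoclax, so a lack of overlap says little of a single gene here.

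**Figure D1:**
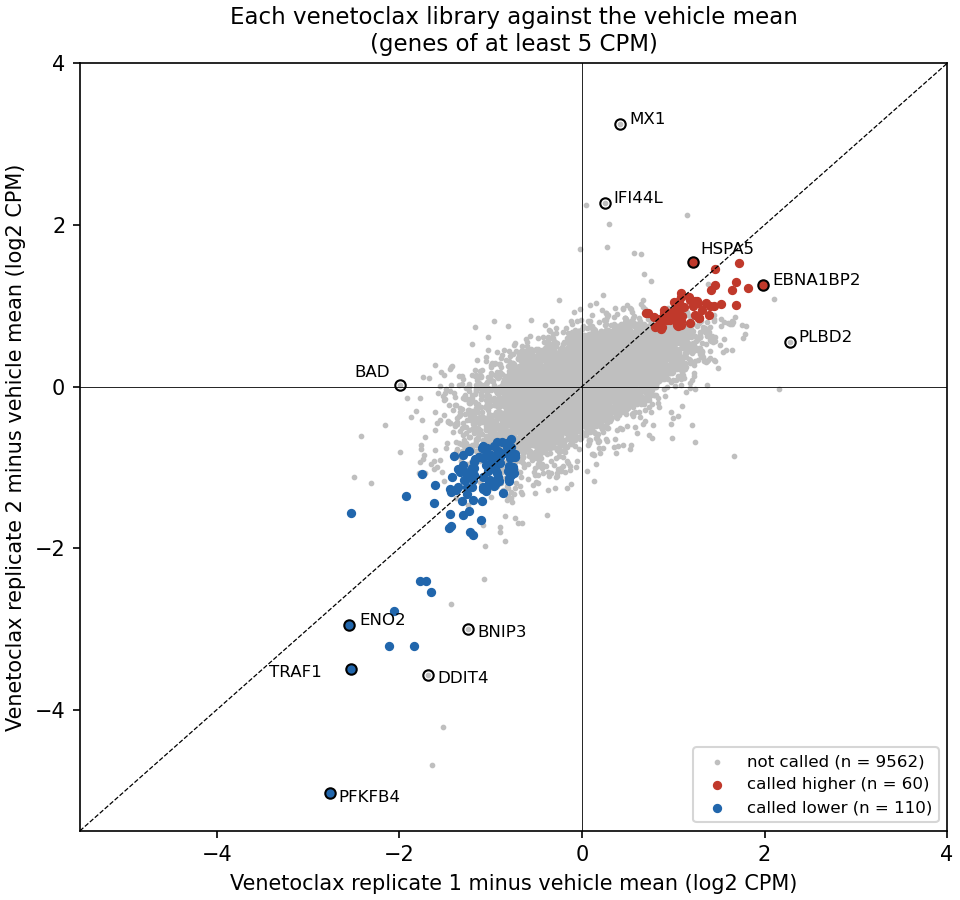
Log2 CPM of venetoclax replicate 1 (horizontal) and replicate 2 (vertical), each less the mean of the vehicle libraries, for 9732 tested genes of at least 5 CPM over the 4 libraries; the dashed line marks equal values. The 60 called higher and 110 called lower lie in the quadrants of equal sign. MX1, IFI44L, PLBD2, BAD, BNIP3 and DDIT4 lie away from the dashed line and were not called. PFKFB4, which was called, also lies away from that line.

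Glycolysis held the greatest share of called genes among the lists. Of 24 measured glycolysis genes, 10 fell, 0 rose and 14 were not called, against 1.11% of all tested genes called lower. The median log2 fold change of the list was -0.88, beside -0.01 over all genes tested, and it was -0.84 in replicate 1 and -0.89 in replicate 2 when each was set against the vehicle mean. In the 8-library fit 17 of the 24 fell, against 9.44% of genes. The falls lay at the entry of glucose (SLC2A1, SLC2A3), at the isomerase, phosphofructokinase and aldolase steps, at PGK1 and ENO2, and at the export of lactate. Among the regulators of phosphofructokinase, PFKFB3 and PFKFB4 fell and PFKFB2 was not called. The promoters of ENO2, which makes a form of enolase, and ALDOA, which makes an aldolase, are shown because both genes fell and both windows, 250 bases before to 50 after the start, hold the HIF1 core ACGTG (capitals; in ALDOA on the opposite strand, read as CACGT). They are RefSeq sequences of GRCh38.p14, chr12:6914330-6914629 and chr16:30064029-30064328, both on the plus strand.
ENO2: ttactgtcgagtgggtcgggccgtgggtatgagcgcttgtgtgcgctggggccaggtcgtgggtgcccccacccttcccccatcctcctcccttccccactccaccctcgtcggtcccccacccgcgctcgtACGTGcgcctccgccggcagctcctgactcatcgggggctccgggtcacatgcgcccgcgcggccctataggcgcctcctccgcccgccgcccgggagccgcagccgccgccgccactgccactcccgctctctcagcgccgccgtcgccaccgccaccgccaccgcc
ALDOA: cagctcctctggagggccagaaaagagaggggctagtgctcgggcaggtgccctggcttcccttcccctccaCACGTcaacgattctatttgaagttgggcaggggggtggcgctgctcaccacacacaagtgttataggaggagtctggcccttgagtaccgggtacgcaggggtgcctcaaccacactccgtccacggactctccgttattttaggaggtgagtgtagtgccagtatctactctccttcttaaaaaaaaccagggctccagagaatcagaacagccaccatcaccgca

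The core began 118 bases before the start in ENO2 and 178 bases before it in ALDOA. Of the 10 glycolysis genes that fell, 9 had a RefSeq promoter and 4 of these (44.4%) held ACGTG on either strand. The same 5 letters stood in 27.3% of the promoters of tested genes, in 29.8% of those of all genes that fell, in 34.6% of those of all genes that rose and in 21.6% of all 27305 promoters of that length. The windows of PFKFB4, PFKFB3 and ADM hold no ACGTG, which says only that these letters are not in this window.

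PFKFB4, whose product sets the level of fructose 2,6-bisphosphate, the activator of phosphofructokinase, had the largest fall among genes of at least 5 CPM with a name and a protein. It stood at 75.03 and 71.9 CPM with vehicle and at 10.7 and 2.14 CPM in venetoclax replicates 1 and 2 (log2 fold change -3.63, SE 0.611, adjusted p = 0.0481). Both treated libraries were low, and replicate 2 was lower than replicate 1 by 2.27 on the log2 scale. PFKFB3, a second enzyme of that function, was at 112 and 118 CPM with vehicle and at 46.0 and 42.9 CPM with venetoclax (-1.39, SE 0.135, adjusted p = 0.0359). ENO2 was at 32.8 and 33.6 CPM with vehicle and at 5.56 and 4.21 CPM with venetoclax (-2.80, SE 0.216, adjusted p = 0.0359). Here the treated libraries lay close together and far below the vehicle pair. SLC16A3, the lactate exporter MCT4, was at 19.1 and 19.5 CPM and fell to 5.56 and 3.55 CPM (-2.13, SE 0.265, adjusted p = 0.0365). The glucose transporter genes SLC2A3 and SLC2A1 changed by -1.51 and -1.06, ALDOA by -1.11, the isomerase gene GPI by -1.04, PGK1, the first step that yields ATP, by -0.94, and the phosphofructokinase gene PFKP by -0.80.

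Several abundant members of the list were lower in both treated libraries without passing the test. GAPDH stood at 2696 and 3042 CPM with vehicle and at 1521 and 1672 CPM with venetoclax (-0.86, adjusted p = 0.0635). ENO1, the main enolase, was at 2250 and 2538 CPM with vehicle and at 1381 and 1240 CPM with venetoclax (-0.89, adjusted p = 0.0621). HK2, the hexokinase that traps glucose in the cell, was at 374 and 411 CPM against 247 and 159 CPM (-0.97, adjusted p = 0.0696). For LDHA, the lactate dehydrogenase subunit, the groups overlapped: 2177 and 2377 CPM with vehicle, 2402 CPM in replicate 1 and 1404 CPM in replicate 2 (-0.28, adjusted p = 0.563). PKM was lower chiefly in replicate 2, at 794 and 853 CPM with vehicle against 715 and 416 CPM. LDHB, PFKFB2 and PFKM also overlapped between the groups, and ALDOC, near 1 CPM, was the one member above both vehicle libraries in both treated ones (log2 fold change 0.59, adjusted p = 0.378). Fewer members of this list passed when either vehicle library was left out, with list medians of -0.91 and -0.82 without vehicle replicates 1 and 2. Without venetoclax replicate 1 or 2 the list median was -0.90 and -0.89.

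Hypoxia-inducible genes outside glycolysis showed lower levels as a group. Of 30 listed genes 24 passed the filter on low counts. Of these 7 fell, 0 rose and 17 were not called, and all 24 fold changes were below 0, with a median of -1.10 (-0.92 in replicate 1, -1.37 in replicate 2). The 8-library fit called 23 of its 25 tested members lower, against 9.44% of genes. Those left out by the filter were CA9, CA12, EGLN3, P4HA2, PPFIA4 and VLDLR, each under 1 CPM in all 4 libraries. ADM, which encodes the vasodilator peptide adrenomedullin, was at 22.0 and 27.6 CPM with vehicle and at 6.78 and 2.57 CPM with venetoclax (log2 fold change -2.49, SE 0.423, adjusted p = 0.0481). BHLHE40, a transcriptional repressor, was at 75.5 and 78.9 CPM and fell to 28.6 and 23.2 CPM (-1.60, SE 0.163, adjusted p = 0.0359). NDRG1, a stress-responsive gene, fell from 25.9 and 28.7 CPM to 7.08 and 10.6 CPM (-1.63). In each of these 3 genes both treated libraries lay well under both vehicle libraries.

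EGLN1, the prolyl hydroxylase that marks HIF1A for destruction and is itself induced by hypoxia, was at 145 and 153 CPM with vehicle and at 77.4 and 65.3 CPM with venetoclax (log2 fold change -1.08). TXNIP, an inhibitor of glucose uptake that sugar induces, changed by -1.05, and the histone demethylase KDM4B by -1.02. STC2, a secreted glycoprotein, had 171 counts with vehicle and 5 with venetoclax, all in replicate 1, a ratio of vehicle to venetoclax of 28.6 (95% counting interval 12 to 89.1). Among members that were not called, BNIP3, a mitochondrial protein of mitophagy, was at 189 and 210 CPM with vehicle, 84.1 CPM in replicate 1 and 24.8 CPM in replicate 2 (-1.90, adjusted p = 0.0826). DDIT4, an inhibitor of mTOR signalling, was at 89.5 and 104 CPM with vehicle and at 29.9 and 8.02 CPM with venetoclax (-2.40, adjusted p = 0.0651). For both genes the treated libraries lay below both vehicle libraries but differed from each other more than 2-fold. P4HA1, VEGFA and PDK1 had the same order, with replicate 2 the lowest and adjusted p-values of 0.0749, 0.0675 and 0.0613. HIF1A itself was at 219 and 219 CPM with vehicle, 350 CPM in replicate 1 and 225 CPM in replicate 2 (0.37, adjusted p = 0.331), and VHL, which recruits the ubiquitin ligase to HIF1A, overlapped between the groups.

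Among genes of ribosome assembly and MYC targets the calls went upward. Of 44 tested members 7 rose, 0 fell and 37 were not called, against 0.512% of tested genes called higher, and the median log2 fold change was 0.66 (0.67 in replicate 1, 0.63 in replicate 2). The 8-library fit called 30 of them higher, against 11.4% of genes. The promoter of EBNA1BP2, a ribosome assembly factor with the largest rise among called genes of at least 5 CPM, is shown because its window holds the E-box CACGTG (capitals), 237 bases before the start. It is the RefSeq sequence of GRCh38.p14, chr1:43172521-43172820, minus strand.
EBNA1BP2: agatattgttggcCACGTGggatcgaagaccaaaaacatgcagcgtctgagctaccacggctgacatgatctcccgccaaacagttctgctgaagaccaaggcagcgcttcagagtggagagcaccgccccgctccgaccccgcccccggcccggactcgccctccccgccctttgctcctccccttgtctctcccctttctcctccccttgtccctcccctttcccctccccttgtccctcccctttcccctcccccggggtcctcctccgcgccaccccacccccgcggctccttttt

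CACGTG, which contains ACGTG, stood in 14 of the 52 promoters found for the genes that rose (26.9%), in 10.6% of those of the genes that fell, in 10.4% of those of tested genes and in 7.43% of all promoters. EBNA1BP2 was at 37.5 and 41.0 CPM with vehicle and at 156 and 94.0 CPM with venetoclax (log2 fold change 1.65, SE 0.247, adjusted p = 0.0455). Both treated libraries were far above the vehicle pair, replicate 1 the more. LYAR, a nucleolar protein, was at 33.5 and 39.0 CPM and rose to 127 and 84.0 CPM (1.53, SE 0.224, adjusted p = 0.0421). The other members that rose were RRS1, which acts in assembly of the large ribosomal subunit, PA2G4, NOP16, GAR1 and UTP20, by 1.28, 1.05, 0.98, 0.97 and 0.86. Outside the list, CD3EAP, a subunit of RNA polymerase I, which transcribes ribosomal RNA, rose from 14.9 and 15.7 CPM to 49.6 and 37.7 CPM (1.49), and LTV1, which acts in assembly of the small subunit, rose by 1.28. NCL, the nucleolar protein nucleolin, was at 2025 and 2244 CPM with vehicle, 6805 CPM in replicate 1 and 3861 CPM in replicate 2, and was not called (1.30, adjusted p = 0.0673). NPM1 had the same order, at 2010 and 2372 CPM against 4405 and 3134 CPM (adjusted p = 0.107). MYC itself overlapped between the groups, with 290 and 305 CPM against 299 and 397 CPM (0.21, adjusted p = 0.485). The 77 tested genes of cytosolic ribosomal proteins had 0 calls by edgeR (23 with an unadjusted p under 0.05, against 25.6% of genes) and a median of -0.26, with 34 below both vehicle libraries in both treated ones, against 28.4% of genes, and 0 above. That median rested on vehicle replicate 2: it was -0.05 without that library and -0.42 without vehicle replicate 1. The summed level was 56960 and 73683 CPM with vehicle and 54195 and 52938 CPM with venetoclax, and the 8-library fit called 13 of the 77 lower, against 9.44% of genes. Fewer members of the assembly list passed when either vehicle library was left out, with list medians of 0.64 and 0.71 without vehicle replicates 1 and 2. Without venetoclax replicate 1 or 2 the median of the assembly list was 0.62 and 0.67.

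**Figure D2:**
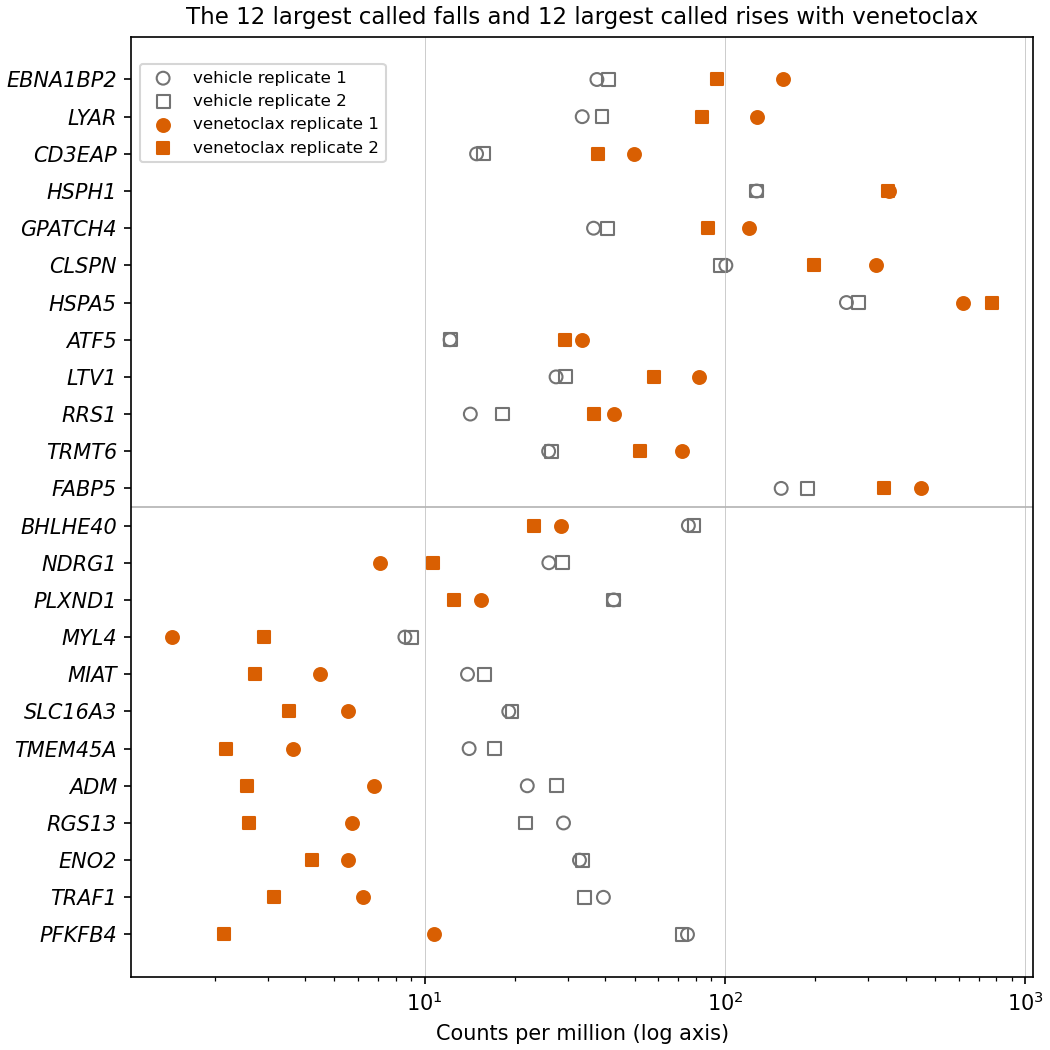
CPM on a log axis in each vehicle library (open) and each venetoclax library (filled) for the 12 largest called rises and the 12 largest called falls, among named genes of at least 5 CPM over the 4 libraries whose groups do not overlap; circles are replicate 1 and squares replicate 2. The filled points lie on 1 side of the open ones in every row by the choice of genes, and the gap between the filled points is widest for PFKFB4, at 10.7 and 2.14 CPM.

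A minority of chaperone and proteasome genes passed the test, against 0.512% of tested genes called higher and 1.11% called lower. Of 25 cytosolic heat shock and chaperonin genes 4 rose, 0 fell and 21 were not called, with a median log2 fold change of 0.59 (0.65 and 0.56 in replicates 1 and 2) and 24 of 25 values above 0. Of 25 genes of the endoplasmic reticulum chaperones and the unfolded protein response 4 rose, 1 fell and 20 were not called, with a median of 0.41 (0.34 and 0.43). Of 31 proteasome subunits 4 rose, 0 fell and 27 were not called, with a median of 0.45 (0.39 and 0.57) and all 31 values above 0. The promoters of HSPA5 and CALR are shown because both genes rose and their windows hold the endoplasmic reticulum stress element, CCAAT followed after a spacer by CCACG (capitals; in CALR on the opposite strand), found in 0.158% of the promoters of tested genes and in no window of the genes that fell. They are RefSeq sequences of GRCh38.p14, chr9:125241294-125241593 on the minus strand and chr19:12938359-12938658 on the plus strand.
HSPA5: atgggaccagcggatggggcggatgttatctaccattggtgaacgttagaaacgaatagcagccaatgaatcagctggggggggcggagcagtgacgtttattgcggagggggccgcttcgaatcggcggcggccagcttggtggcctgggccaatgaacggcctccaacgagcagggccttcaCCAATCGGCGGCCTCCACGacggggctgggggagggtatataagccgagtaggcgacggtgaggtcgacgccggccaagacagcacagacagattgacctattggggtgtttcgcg
CALR: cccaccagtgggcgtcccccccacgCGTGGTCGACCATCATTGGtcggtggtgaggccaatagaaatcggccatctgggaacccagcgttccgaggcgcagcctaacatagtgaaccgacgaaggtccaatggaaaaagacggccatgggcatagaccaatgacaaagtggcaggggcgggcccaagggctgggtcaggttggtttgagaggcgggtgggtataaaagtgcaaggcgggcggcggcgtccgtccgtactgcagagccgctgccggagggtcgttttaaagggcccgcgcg

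The element began 66 bases before the start in HSPA5 and 225 bases before it in CALR, and these were the 2 matches among 52 promoters of genes that rose (3.85%). Of the heat shock elements searched on both strands, TTCNNGAA stood in 10 of these 52 promoters (19.2%), against 6.16% of those of tested genes and 7.84% of all, and GAANNTTC in 2 of them (3.85%), against 4.78% and 6.87%. Among the 4 cytosolic chaperone genes that rose, 1 held TTCNNGAA and 1 held GAANNTTC. Among the 4 of the endoplasmic reticulum that rose, 0 held either. HSPA5, the main chaperone of the endoplasmic reticulum, was at 254 and 279 CPM with vehicle and at 618 and 773 CPM with venetoclax (log2 fold change 1.37, SE 0.170, adjusted p = 0.0365). CALR, a chaperone of glycoproteins, was at 935 and 1018 CPM and rose to 1991 and 1892 CPM (0.97, SE 0.170, adjusted p = 0.0481). In both genes the 2 treated libraries were near each other and above the vehicle pair. DNAJB11 and MANF, further proteins of that compartment, rose by 1.14 and 0.92, while EDEM1, which sends misfolded glycoproteins to degradation, fell by 0.91. In the cytosol HSPH1, which recharges HSP70 with ATP, was at 127.5 and 127.2 CPM with vehicle and at 350.5 and 348.5 CPM with venetoclax (1.44, SE 0.135, adjusted p = 0.0359), with little gap within either group. The HSP90 cochaperone genes AHSA1 and STIP1 rose by 1.11 and 0.89 and the HSP40 gene DNAJA1 by 1.09. HSPA8, the constitutive HSP70, was at 2522 and 2635 CPM against 5726 and 4878 CPM and was not called (1.02, adjusted p = 0.0579).

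Among proteasome genes, PSMD1, PSMD7 and PSMD12 of the regulatory cap and the ATPase gene PSMC3 rose by 1.01, 0.87, 0.89 and 0.79. PSMD1 was at 145 and 153 CPM with vehicle and at 299.7 and 308 CPM with venetoclax. Without vehicle replicate 1 or 2 the count of rises by edgeR was 0 and 0 of 31 proteasome genes, 1 and 1 of the heat shock genes and 2 and 2 of the endoplasmic reticulum genes. Without venetoclax replicate 1 or 2 the list medians were 0.56 and 0.38 for proteasome genes and 0.55 and 0.65 for heat shock genes. Those of the endoplasmic reticulum genes were 0.42 and 0.33. The 8-library fit called 20, 17 and 11 members higher, against 11.4% of genes.

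**Figure D3:**
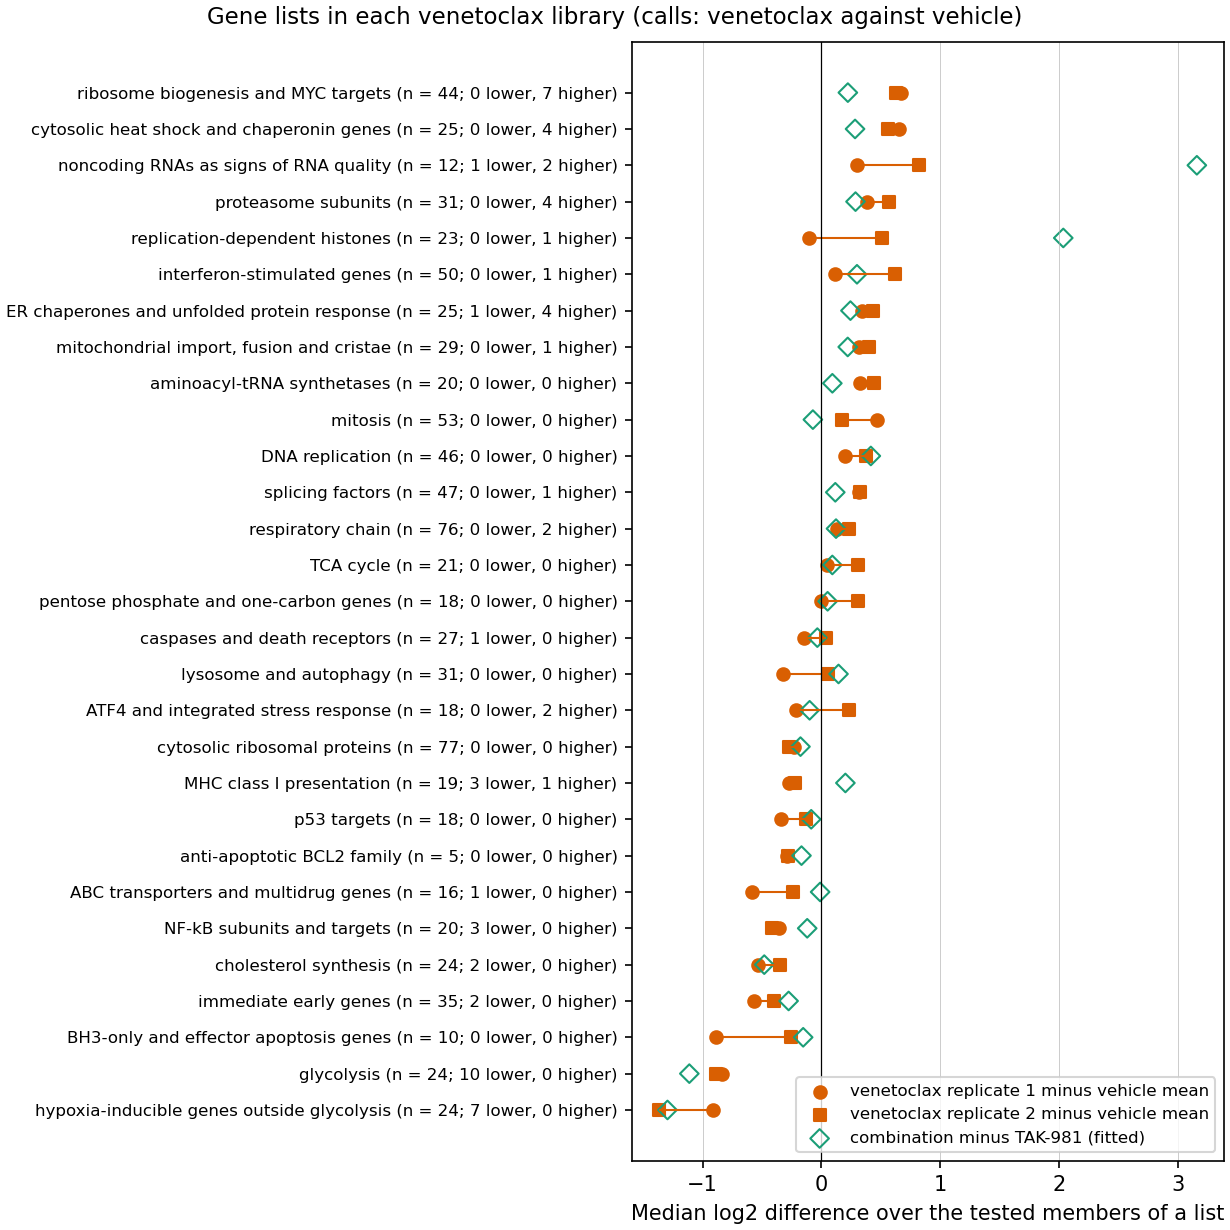
Median log2 difference over the tested members of each gene list, for venetoclax replicate 1 (circle) and replicate 2 (square) less the vehicle mean, with the fitted difference of the combination less TAK-981 (diamond); row labels give the members tested and called with venetoclax against vehicle. The hypoxia list lies lowest in both libraries, at -0.92 and -1.37, the ribosome assembly list stands at 0.67 and 0.63, and interferon-stimulated genes stand at 0.12 in replicate 1 and 0.62 in replicate 2.

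Of 20 tested NF-kB subunits and targets 3 fell, 0 rose and 17 were not called (median log2 fold change -0.35), against 1.11% of tested genes called lower. TRAF1, an adaptor of tumour necrosis factor receptors and an NF-kB target, was at 39.4 and 34 CPM with vehicle and at 6.24 and 3.16 CPM with venetoclax (-3.03, SE 0.326, adjusted p = 0.0365). TNFAIP3, the deubiquitinase A20 that limits NF-kB signalling, fell from 108 and 105 CPM to 41.4 and 45.1 CPM (-1.32), and BIRC3, a ubiquitin ligase of the same complexes, fell by 0.90. BIRC3 was also the 1 called member of 27 caspase and death receptor genes. Of 35 tested immediate early genes 2 fell and 0 rose (median -0.50), against the same 1.11%. These were the kinase gene PIM1 at -0.78 and KLF2, with 24 and 20 counts with vehicle and 1 and 2 with venetoclax, a ratio of vehicle to venetoclax of 12.3 (95% counting interval 3.93 to 61.7). Of 19 genes of MHC class I presentation 3 fell, namely HLA-E at -0.99, HLA-B at -0.96 and NLRC5, an activator of that class, at -1.02, while CALR, counted above, rose. The near-identical HLA genes may share reads. Of 24 cholesterol synthesis genes STARD4 and MSMO1 fell, at -0.89 and -0.80, with a list median of -0.44, and for both lists 1.11% of all genes fell.

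Other lists held few calls, beside 0.512% of all tested genes called higher, 1.11% called lower and 25.6% with an unadjusted p under 0.05. Of 76 respiratory chain genes NDUFS6 and NDUFA12, parts of complex I, rose by 1.19 and 0.91 (median 0.23, 0 lower), and of 29 genes of mitochondrial import, fusion and cristae HSPA9, the HSP70 of the matrix, rose by 1.07. Of 18 genes of ATF4 and the integrated stress response 2 rose, the transcription factor ATF5 by 1.35 and the tRNA exporter XPOT by 0.81, with a list median of -0.07 that turned positive under 3 alternatives, most without venetoclax replicate 1 (0.22). Of 46 DNA replication genes and 53 mitosis genes 0 were called by edgeR (19 and 12 had an unadjusted p under 0.05, and the 8-library fit called 16 and 6 higher, against 11.4% of genes), and the list medians were 0.31 each. In the mitosis list the median was 0.47 in replicate 1 and 0.17 in replicate 2. Of 18 p53 targets 0 were called by edgeR (7 had an unadjusted p under 0.05, and the 8-library fit called 6 lower, against 9.44% of genes; median -0.27), and CDKN1A, the cell cycle inhibitor p21, was at 1.74 and 1.88 CPM with vehicle and at 0.685 and 0.584 CPM with venetoclax (adjusted p = 0.0713). Of 16 transporter and multidrug genes ABCA1, which exports cholesterol, fell by 1.01. SNRPC, of the U1 spliceosomal particle, was the 1 splicing factor of 47 that rose, by 0.93. The lists of the TCA cycle (21 genes), of the pentose phosphate and one-carbon pathways (18), of the aminoacyl-tRNA synthetases (20) and of the lysosome and autophagy (31) had 0 calls by edgeR, with 6, 4, 10 and 7 members at an unadjusted p under 0.05.

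Some RNAs without a poly(A) tail moved too, at low levels. HIST1H4C, a replication-dependent histone gene, had 13 and 11 counts with vehicle and 42 and 165 with venetoclax, a summed ratio of 10.3 (95% counting interval 6.75 to 16.5). It was the 1 called of 23 tested histone genes, against 0.512% of tested genes called higher. Of the 23, 15 were above 0 and 8 below. The median of that list was -0.11 in replicate 1 and 0.51 in replicate 2, and the fitted median of 0.41 turned to -0.21 without replicate 2. Of 12 tested noncoding RNAs listed as signs of RNA quality 2 rose and 1 fell, against 0.512% of tested genes called higher and 1.11% called lower. The small RNA RNU12 had 2 and 2 counts with vehicle and 14 and 68 with venetoclax, and RN7SK had 67 and 77 against 137 and 234, while SNORD3A had 61 and 64 against 2 and 8. The sources name different library methods, and how such RNAs are captured depends on the method, so these values carry that limit.

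Further genes outside the lists were among the largest changes. RGS13, a brake on G protein signalling, was at 29 and 21.7 CPM with vehicle and at 5.71 and 2.61 CPM with venetoclax (log2 fold change -2.68, SE 0.378, adjusted p = 0.0392). Falls were also seen in TMEM45A, a membrane protein, the noncoding RNA MIAT, the myosin light chain gene MYL4 and the semaphorin receptor gene PLXND1, with log2 fold changes of -2.48, -2.10, -1.97 and -1.63. CLSPN, which encodes the replication checkpoint adaptor claspin, was at 101 and 96.4 CPM with vehicle and at 319 and 198 CPM with venetoclax (1.37, SE 0.235, adjusted p = 0.0481). GPATCH4 rose by 1.41, the tRNA methyltransferase gene TRMT6 by 1.22 and the fatty acid carrier gene FABP5 by 1.19. Of the 63 called genes chosen by the rule for named genes, 31 were called without each of the 4 libraries in turn, and each of the others was lost without at least 1 vehicle library. Those that held include PFKFB4, PFKFB3, ENO2, SLC16A3, ADM, BHLHE40, NDRG1, EGLN1, TRAF1, TNFAIP3, EBNA1BP2, LYAR, LTV1, CD3EAP, HSPH1, HSPA5 and DNAJB11.

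The drug target and its relatives did not pass the test. Of the 5 tested anti-apoptotic members of the BCL2 family and the 10 tested BH3-only and effector genes, 0 were called by edgeR, 1 and 5 had an unadjusted p under 0.05 (25.6% of all genes), and the 8-library fit called 2 and 5 lower, against 9.44% of genes. BCL2 was at 289 and 298 CPM with vehicle and at 236 and 242 CPM with venetoclax, lower in both treated libraries (log2 fold change -0.32, SE 0.134, adjusted p = 0.196). MCL1 was at 197 and 196 CPM with vehicle and at 201 and 213 CPM with venetoclax (0.05, SE 0.131, adjusted p = 0.822). Per kilobase, MCL1 stood at 45.1 and 44.9 RPKM and BCL2 at 38.7 and 39.8 RPKM with vehicle, and at 45.9 and 48.8 against 31.5 and 32.3 RPKM with venetoclax. MCL1 was thus the higher of the pair in each library per kilobase of the deposited gene length, whereas BCL2 was the higher in CPM. BCL2L1, which makes BCL-XL, was at 14.3 and 14 RPKM with vehicle, 11.6 RPKM in replicate 1 and 17.6 RPKM in replicate 2 (0.02, adjusted p = 0.954), so the treated libraries lay on either side of the vehicle pair. BCL2A1 and BCL2L2 followed below 10 RPKM, and neither was called.

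Among the pro-apoptotic members, BCL2L11, which encodes BIM, was at 25.1 and 23.8 CPM with vehicle and at 15.99 and 16.8 CPM with venetoclax (log2 fold change -0.59, SE 0.170, adjusted p = 0.0925). BBC3, which encodes PUMA, had 25 and 26 counts with vehicle and 4 and 10 with venetoclax (-1.62, adjusted p = 0.0853), and BMF was at 8.34 and 6.91 CPM against 3.43 and 5.10 CPM (-0.83, adjusted p = 0.118). PMAIP1, which encodes NOXA, the partner of MCL1, overlapped between the groups, at 32.9 and 41.3 CPM with vehicle and 40.1 and 43.9 CPM with venetoclax. The treated libraries went apart in the effector BAK1, at 19.4 and 20.2 CPM with vehicle, 7.23 CPM in replicate 1 and 23.3 CPM in replicate 2, and in BAD, at 8.55 and 9.004 CPM with vehicle against 2.13 and 8.92 CPM. BAX was at 21.3 and 19.5 CPM against 17.1 and 27.5 CPM. The fold changes of BAK1 (-0.37) and BAD (-0.63) came from replicate 1: without it they were 0.23 and 0.01.

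**Figure D4:**
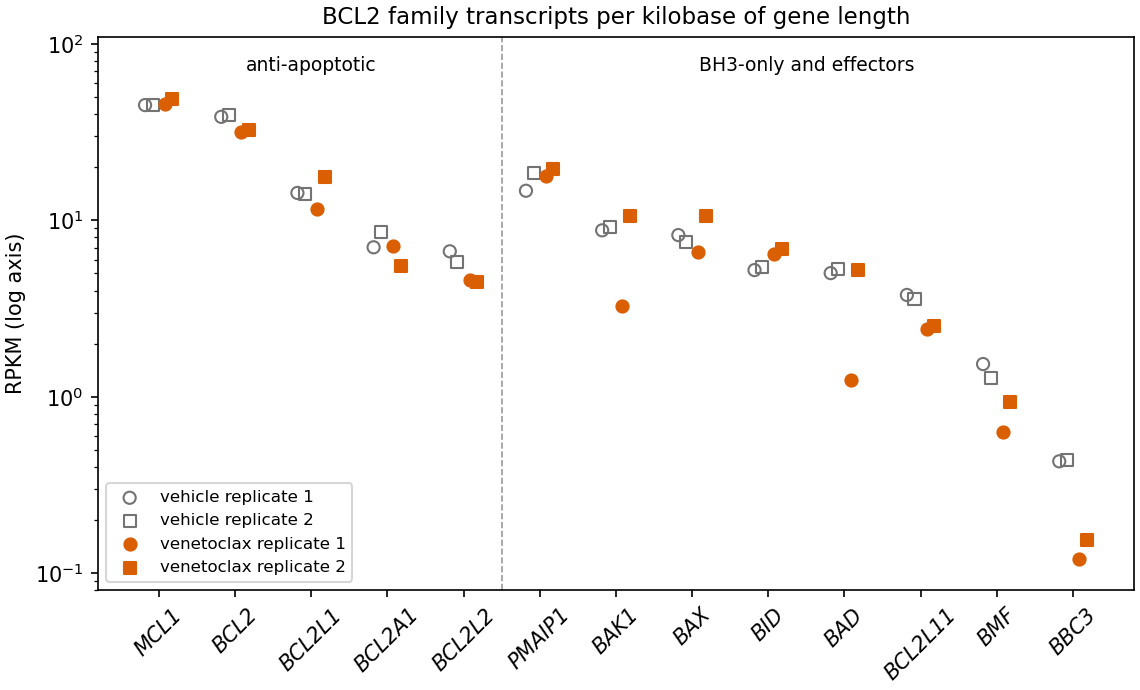
RPKM on a log axis for BCL2 family genes in each vehicle (open) and venetoclax (filled) library, with circles for replicate 1 and squares for replicate 2. MCL1 and BCL2 are the highest, and for BAK1 and BAD venetoclax replicate 1 lies apart, at 3.28 and 1.25 RPKM, from the other 3 libraries.

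Where the 2 venetoclax libraries differed, 69 of the 245 genes past 2-fold were higher in replicate 1 and 176 in replicate 2. The genes with the largest gaps, chosen for them and so given as a description, were led by interferon-stimulated genes on the side of replicate 2. MX1, a GTPase that blocks viruses, was at 3.21 and 3.24 CPM with vehicle, 4.34 CPM in replicate 1 and 31.4 CPM in replicate 2. IFI44L was at 21.6 and 17.2 CPM with vehicle and at 22.9 and 93.9 CPM with venetoclax, and OAS1, which makes the activator of RNase L, at 4.04 and 4.35 CPM against 4.34 and 20.2 CPM. In these 3 genes replicate 1 was near the vehicle pair and replicate 2 far above it. Of 50 tested interferon-stimulated genes 1 rose with venetoclax, against 0.512% of tested genes called higher. This was EIF2AK2, the RNA-sensing kinase PKR, which was alike in both libraries (218 and 210 CPM with vehicle, 399 and 402 CPM with venetoclax, log2 fold change 0.89). The list median was 0.12 in replicate 1 and 0.62 in replicate 2. The fitted list median was 0.62 without replicate 1 and 0.11 without replicate 2.

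On the side of replicate 1 the largest gap was that of YJEFN3, at 44.0 CPM in replicate 1 and 7.56 CPM in replicate 2, a gene that also differed between the vehicle libraries, at 19.0 and 9.94 CPM. NPIPB5, whose near-identical copies may share reads, was at 37.7 and 8.14 CPM against 10.1 and 6.91 CPM with vehicle, and SSC5D at 11.3 and 2.92 CPM against 4.56 and 4.99 CPM. PLBD2, a lysosomal protein, was at 169 and 51.1 CPM against 37.8 and 32.3 CPM, and EVI2B at 217 and 67.7 CPM against 94.0 and 94.6 CPM. BNIP3, DDIT4 and PFKFB4 were higher in replicate 1 than in replicate 2 while both lay below vehicle. Several genes with low values in replicate 1 only, namely BAD, TSSC4, KLF16 and CEBPA, a transcription factor of myeloid cells, were near vehicle in replicate 2. CEBPA was at 8.81 and 9.09 CPM with vehicle, 2.74 CPM in replicate 1 and 9.62 CPM in replicate 2.

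The gap between the treated libraries moved with the GC content of the transcript. Over 4 equal groups of genes from the lowest GC to the highest (median GC 38.5, 43.3, 49.9 and 58.8%), the median log2 difference of replicate 1 from replicate 2 was 0.20, 0.08, -0.05 and -0.32. Against vehicle, replicate 1 stood at 0.17, 0.14, 0.02 and -0.30 in these groups, and replicate 2 at 0.01, 0.10, 0.11 and 0.05. With each library's trend on GC content removed, 776 of 11871 genes were called, 370 higher and 406 lower. Of these calls 188 were among the 200. The falls of glycolysis came to 13 and of the other hypoxia genes to 16 members, the rises of ribosome assembly genes to 21. Calls became more frequent over all genes too, so the larger list counts are no sign of larger changes. The medians of these lists were then -0.74, -1.16 and 0.66. The direction of these lists was thus the same with and without that trend.

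The same drug difference was measured a second time in cells that also received TAK-981, in 4 libraries that the 4-library fit above does not use. With TAK-981 present, venetoclax changed 3746 of 12566 genes (29.8%), 1716 higher (13.7%) and 2030 lower (16.2%), with replicates closer together. Of the 200 genes called with venetoclax alone 190 (95%) had the same direction there, against 64.6% of the 12135 genes tested in both, 161 were also called in that direction, and 0 were called in the other. All 63 that rose had the same direction and 54 were called, and of the 137 that fell 127 had it and 107 were called. The median of the rises was 1.03 alone and 0.41 with TAK-981, and of the falls -1.20 and -0.65. Because the 200 were chosen for their size in the first comparison, smaller values in the second are no test of a difference.

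By role, 20 of 24 glycolysis genes and 22 of 24 hypoxia genes fell with TAK-981 present, against 16.2% of genes, and 22 of 44 ribosome assembly genes, 20 of 31 proteasome genes and 15 of 26 heat shock genes rose, against 13.7%. PFKFB4 changed by -4.18, ENO2 by -2.27, TRAF1 by -2.52, HSPA5 by 0.84 and EBNA1BP2 by 0.46. LDHA and BNIP3, which the comparison without TAK-981 did not call, changed by -1.60 (adjusted p = 4.59e-07) and -3.88 (adjusted p = 3.32e-12). Of the lists, those of histones and of RNA quality had the largest medians there: 27 of 33 tested histone genes rose (median 2.04), as did 12 of 15 noncoding RNAs listed as signs of RNA quality (median 3.16), beside a median of 0.02 over all genes. The summed level of these noncoding RNAs, MALAT1 and NEAT1 included, was 6902 and 4154 CPM with TAK-981 and 12195 and 14250 CPM with both drugs, and its part in the other differences was not tested. Of 46 DNA replication genes 37 rose with TAK-981 present and 0 without it by edgeR, while the interaction test called none of them. BCL2 changed by -0.44 (adjusted p = 0.000535), PMAIP1 by -1.34 (adjusted p = 2.89e-06) and BMF by 1.22 (adjusted p = 3.42e-05). HLA-E and HLA-B, which fell with venetoclax alone, were at 0.04 and 0.18 here and were not called, nor were they in the interaction (adjusted p = 0.0999 and 0.108).

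**Figure D5:**
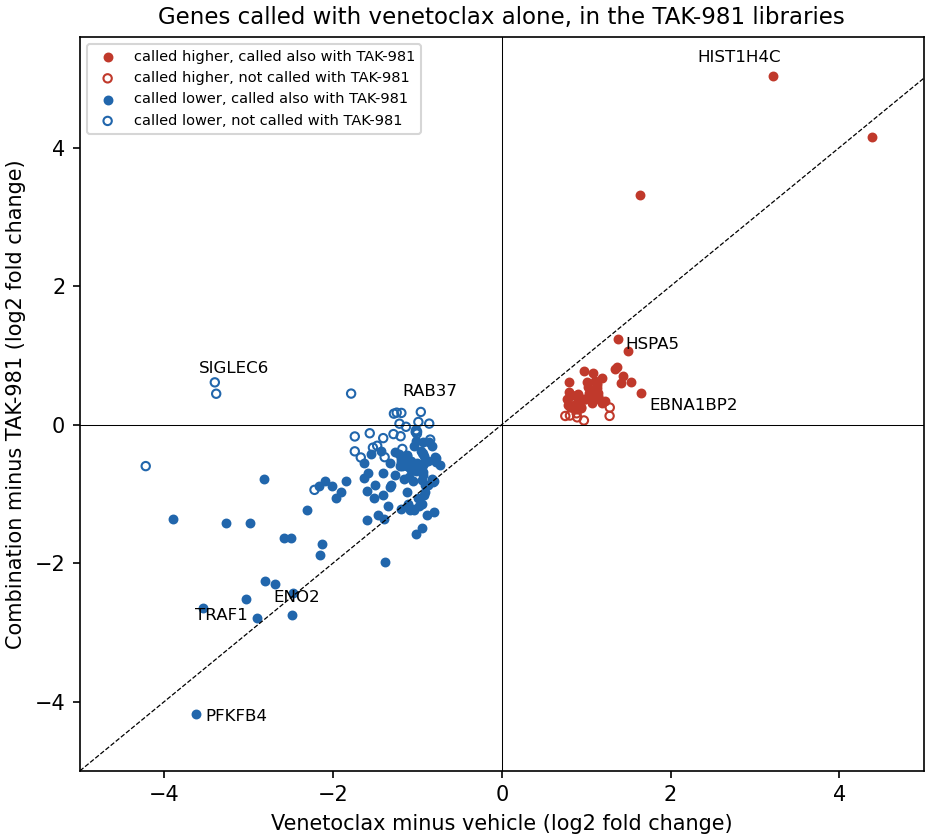
Fitted log2 fold change of venetoclax against vehicle (horizontal) and of the combination against TAK-981 (vertical) for 197 of the 200 genes called with venetoclax alone; filled points were called in both, the dashed line marks equal values, and RNU5D-1, LINC01679 and STC2 lie outside the axes. Filled points keep to the quadrants of equal direction, and SIGLEC6 and RAB37 lie above 0 with TAK-981.

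The difference between both venetoclax effects was tested as an interaction over the 8 libraries. It called 4 of 12843 genes (0.0311%), 4 with a higher value when TAK-981 was present and 0 with a lower one by edgeR, where 2427 genes had an unadjusted p under 0.05 and DESeq2 called 300. SIGLEC6, an inhibitory sialic acid receptor, was at 7.51 and 8.49 CPM with vehicle, 0.761 and 0.779 CPM with venetoclax, 4.64 and 7.06 CPM with TAK-981 and 6.54 and 9.54 CPM with both (interaction 3.81, adjusted p = 0.0385). RAB37, a GTPase of secretion, was at 51.3 and 57.4 CPM with vehicle, 22.6 and 22.8 CPM with venetoclax, 168 and 164 CPM with TAK-981 and 175 and 197 CPM with both (1.42, adjusted p = 0.0385). Venetoclax thus lowered both genes in the absence of TAK-981, and with TAK-981 neither was called. MTSS1, a membrane-bending protein, was near vehicle with venetoclax alone, at 44.0 and 43.7 against 49.6 and 45.8 CPM, and rose with TAK-981 present from 73.1 and 67.9 to 142 and 145 CPM. With 1 library of the vehicle, TAK-981 or combination group left out, the interaction called 0 genes by edgeR, while 1205 to 1890 had an unadjusted p under 0.05. Simulated interactions of 2-fold, drawn with the same spread in all groups, were recovered in 55% of cases.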

How the data were processed

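RNA sequencing of 8 libraries of KG1a cells, 2 per group, gave the data, and groups came from the labels. RNA was isolated with a miRNeasy kit and read singly, per the labels' protocols. For the libraries, those protocols list a low-input SMART-Seq kit, whereas the series' design states depletion of ribosomal RNA. The deposited table holds raw read counts by gene on hg38. The submitters' processing notes list Trimmomatic, HTSeq 0.11.1, STAR 2.6.0 and edgeR with no role. Annotation, strand setting and handling of reads with several matches: not given in the sources used here. Therefore values of near-identical and overlapping genes are uncertain.

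Counts of 25168 genes were tested with edgeR's quasi-likelihood test on the 4 libraries of each comparison (R 4.3.3, edgeR 4.0.16, limma 3.58.1). Settings were TMM scaling, filterByExpr, robust dispersion, a two-sided test and Benjamini-Hochberg over all genes tested, with a threshold of 0.05. A fit over 8 libraries would average the wider venetoclax spread over all groups. The 4-library fit still pools it with the closer vehicle pair, so its p-values do not allow for unequal spread. The interaction used 8 libraries. Fold changes are log2 values of the fit, and each SE, an approximation, is their size divided by the root of F. CPM used TMM factors of all 8 libraries, single-library differences used log2 CPM with a prior count of 2, and RPKM divided CPM by the deposited gene length. Named genes are among called genes with a mean of 5 CPM or more, named, mostly coding symbols and no overlap, the 12 largest rises and falls, up to 4 called members per list, a set of 20 BCL2 family, HIF and marker genes, the 8 genes per direction that differ most between the venetoclax libraries, and up to 6 for the interaction; other list members, such as those not called, were chosen after their values were seen. Of 1008 members of 37 lists 1004 matched, 17 by another symbol. The comparison, members and lists were chosen with earlier results of these data known, so no set test was made. Motifs were searched on both strands of RefSeq promoters (GRCh38.p14), found for 9494 of 12293 tested genes. Counting intervals are exact at 95% and cover counting error only.

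On simulated counts the venetoclax test made 115 calls, 10 of them false, and found 18% of the simulated 1.5-fold changes and 87% of the 2-fold ones. The test of the combination against TAK-981 made 222 calls, 28 of them false, and the interaction test 63, 5 of them false. The simulation had no GC trend. It gave all groups the same spread for a gene, whereas the real venetoclax pair varied more than the others. Its rates of false and recovered calls may therefore not hold for the real comparison. Alternatives were no filter, at least 1 CPM, scaling by DESeq2's size factors, 8 libraries, the replicate block, DESeq2 1.42.0, limma-voom with and without weights, a test against a fold change of 1.5, each library left out and, added after seeing the data, a GC correction.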

Additional observations from a re-analysis of the deposited data

Results flagged for a closer look

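Genes whose venetoclax effect differed with and without TAK-981 by the interaction test were SIGLEC6 (3.81), RAB37 (1.42), the noncoding MIR4697HG (1.34) and MTSS1 (1.14), on the log2 scale, each with an adjusted p of 0.0385 by edgeR. MIR4697HG was at 69.9 and 62.9 CPM with vehicle, 32.1 and 27.0 CPM with venetoclax, 73.4 and 74.7 CPM with TAK-981 and 83.0 and 83.5 CPM with both drugs.

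For 3 genes of the fixed set every venetoclax library moved one way from vehicle and every combination library the other way from TAK-981, and the interaction test did not call the difference. These were BMF (2.02, adjusted p = 0.0845), HIF1A (-0.64, adjusted p = 0.211) and MCL1 (-0.24, adjusted p = 0.348). Some shifts were small. In venetoclax replicates 1 and 2 the log2 difference from vehicle was 0.03 and 0.12 for MCL1, 0.67 and 0.04 for HIF1A and -1.13 and -0.56 for BMF. Groups did not overlap in 58.9% of all tested genes for venetoclax and in 65.9% for the combination, so the pattern says little of a single gene.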

How the results depend on the processing

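The count of genes changed by venetoclax varied widely with the setting. Against 200, DESeq2's size factors gave 194 and limma-voom 242; no filter gave 830, at least 1 CPM 85, the GC correction 776, DESeq2 1255, limma-voom with a weight per group 1240, all 8 libraries 2676 and the test against a fold change of 1.5, by edgeR, 0 (831 at an unadjusted p under 0.05). With the replicate number as a block it was 1592; the labels give only a shared number, and the replicate differences of vehicle and venetoclax correlated at -0.041 and those of TAK-981 and the combination at 0.17 over 9732 genes, so the numbers were not taken as pairs. Leaving out 1 library gave 119 to 5406 (119 and 169 without vehicle replicates 1 and 2, 4203 and 5406 without venetoclax replicates 1 and 2, where the lone library is assumed to vary like the pair left in the fit), with 77, 91, 199 and 199 of the 200 among them.

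For the combination against TAK-981, 8 libraries gave 1130 calls against 3746, the block 4529, and leaving out 1 library 1809 to 3750, with 1809 and 2080 without TAK-981 replicates 1 and 2. For the interaction, size factors gave 8, no filter 1098, the block 24 and DESeq2 300 against 4, and leaving out 1 library 0 to 4440 (713 without venetoclax replicate 1, 4440 without replicate 2). The venetoclax pair differed over 2-fold in 447 genes of at least 1 CPM and 101 of at least 20 CPM, against 245. Signs reversed for BCL2L1 with the block (-0.01) and MCL1 with the GC correction (-0.0029), and for 5 genes when a venetoclax library was left out: BCL2L1 (-0.30 to 0.30 over the libraries left out) and BAX (-0.26 to 0.42) without replicate 2, BAK1 (-1.46 to 0.23), BAD (-2.04 to 0.01) and VHL (-0.12 to 0.07) without replicate 1. None of these reversed values was called. Of 518 list medians under alternatives 502 kept their sign, among them all of the glycolysis, hypoxia, ribosome assembly, heat shock, endoplasmic reticulum, proteasome and NF-kB lists. The causes were not tested. Simulated 1.5-fold changes were recovered in 18% of cases for venetoclax against vehicle and in 95% for the combination against TAK-981, where libraries were no deeper and replicates closer together.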
